A study of Mus musculus with 6 samples.

Results

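Deptor and 9 genes of the mTOR pathway were examined in mammary tumors from mice treated with or without the LXR agonist DMHCA. They were the kinase Mtor, the complex subunits Rptor, Rictor and Mlst8, the upstream regulators Tsc1, Tsc2 and Rheb, and the substrates Akt1s1 and Eif4ebp1. These 10 genes were found by their symbols among the 55385 genes of each library, and each symbol matched 1 gene. Deptor was chosen by its measured difference between these same libraries, and its difference between the groups is therefore given as a description without a test. The other 9 genes were added for their known place in the pathway, with earlier results of these data known.

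RNAseq was performed on tumors of female NeuT/ATTAC mice, and 3 libraries were deposited for each of the control and DMHCA groups. Both groups carried a constitutively active rat ErbB2 transgene driven by MMTV and an FKBPv-caspase-8 fusion driven by the FABP4 promoter, which is active in fat cells. The dimerizer AP20187, given by injection (0.4 mg/kg) starting when the mice were 6 weeks old, switches on this caspase, so that mammary fat is partly lost and replaced by fibrotic tissue. DMHCA made up 0.05% of the diet of the treated mice (100 mg/kg) from 8 weeks of age. The labels give the control treatment as AP20187 Vehicle, which can be read as AP20187 in vehicle or as vehicle alone, and name the tissue as mammary gland fibrosis, whereas the study describes tumors from AP20187-treated mice. DMHCA libraries 1 and 3 were nearly identical, with a biological coefficient of variation between them of 0.0327 against 0.376 to 0.579 in the other 5 pairs within a group, and they were summed into 1 sample. The comparison thus rests on 3 control tumors and 2 DMHCA samples, and values below are expected counts scaled to a common library size (normalized counts) or TPM, RSEM's measure of transcript abundance, which also accounts for transcript length.

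mTOR is a protein kinase that works in a pair of complexes. mTORC1, built with Raptor (Rptor) and mLST8, drives protein synthesis when amino acids and growth factors are plentiful, and mTORC2, built with Rictor and mLST8, phosphorylates AKT. DEPTOR binds mTOR in both complexes and inhibits its kinase activity. The TSC1-TSC2 complex restrains mTORC1 by switching off the small GTPase RHEB, while PRAS40 (Akt1s1) and 4E-BP1 (Eif4ebp1) are mTORC1 substrates, the former also an inhibitor of the complex and the latter a repressor of cap-dependent translation. ErbB2 signals to mTOR through PI3K and AKT, the route by which growth factor receptors reach this pathway in mammary epithelium.

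Promoter sequences of GRCm38.p6 from RefSeq, reaching from 250 bases before to 50 bases after the transcript start, were matched by symbol for 8 of the 10 genes, all except Deptor and Eif4ebp1. Those of Mtor, the kinase, and Akt1s1, which had the largest fold change of the tested members, are shown. The letters CCAAT and GGGCGG (the CCAAT box and the GC box) are in capitals on either strand. That of Rptor, the mTORC1 scaffold, is shown for contrast because it holds neither.
Mtor, chr4:148448332-148448631, plus strand: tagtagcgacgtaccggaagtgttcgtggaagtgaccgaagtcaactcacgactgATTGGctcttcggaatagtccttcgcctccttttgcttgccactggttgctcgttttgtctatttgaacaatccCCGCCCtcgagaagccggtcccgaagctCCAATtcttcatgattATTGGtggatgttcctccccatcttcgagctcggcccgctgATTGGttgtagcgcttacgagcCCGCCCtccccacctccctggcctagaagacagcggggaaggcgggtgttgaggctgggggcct
Akt1s1, chr7:44850122-44850421, plus strand: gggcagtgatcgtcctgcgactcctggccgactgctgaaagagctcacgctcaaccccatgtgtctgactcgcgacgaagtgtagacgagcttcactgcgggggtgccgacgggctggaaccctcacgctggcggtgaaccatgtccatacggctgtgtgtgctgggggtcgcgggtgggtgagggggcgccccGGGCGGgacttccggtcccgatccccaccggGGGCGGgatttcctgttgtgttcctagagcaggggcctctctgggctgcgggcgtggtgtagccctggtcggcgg
Rptor, chr11:119602655-119602954, plus strand: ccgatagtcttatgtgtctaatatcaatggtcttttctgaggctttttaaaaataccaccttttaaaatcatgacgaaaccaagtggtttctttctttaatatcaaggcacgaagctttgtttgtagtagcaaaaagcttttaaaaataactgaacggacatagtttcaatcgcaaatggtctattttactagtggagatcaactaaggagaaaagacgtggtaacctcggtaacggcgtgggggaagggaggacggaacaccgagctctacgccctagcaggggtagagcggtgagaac

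The Mtor window held 4 CCAAT boxes and 2 GC boxes, and the Akt1s1 window held 2 GC boxes. A CCAAT box was present in 2 of the 8 member promoters and in 37.4% of all 32851 promoters, and a GC box in 4 of the 8 and in 35.7% of all. The nuclear receptor half-site AGGTCA was found in 0 of the 8 on either strand, against 16.3% of all promoters. The pair of AGGTCA half-sites spaced by 4 bases, the arrangement to which LXR with its partner RXR binds, was found in 0 of the 8 and in 5 of all promoters. The Mtor window was 56.7% G and C, the Akt1s1 window 67.7% and the Rptor window 41.7%.

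Deptor (GRCm38, ENSMUSG00000022419, chr15:55112317-55259271, plus strand) encodes the inhibitory subunit shared by both mTOR complexes and was the member with the widest range of levels. There were 13636, 4003 and 4510.2 normalized counts in control tumors 1, 2 and 3, 34965 in the merged DMHCA sample and 21288 in DMHCA tumor 2. Both DMHCA samples were above all 3 control tumors, and control tumor 1 held more counts than the other two controls together. The means were 7383 ± 5421 (SD, n = 3) and 28126 ± 9671 (SD, n = 2), a 3.81-fold difference (log2 fold change 1.93, standard error 0.59). Without control tumor 1 the log2 fold change of Deptor was 2.72, without DMHCA tumor 2 it was 2.28, and without control tumor 2 or control tumor 3 it was 1.63 or 1.67. Gm9920 overlaps the first part of Deptor on the opposite strand, and its level was 0.820 to 1.72 TPM in control and 1.59 to 4.36 TPM in DMHCA libraries. Reads of the overlap cannot be assigned with certainty, because the strand setting of the counting is not given in the sources used here.

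Per transcript length, Deptor was present at 42.4, 9.39 and 13.1 TPM in control libraries 1, 2 and 3 and 103, 70.6 and 109 TPM in DMHCA libraries 1, 2 and 3. It was the 6th most abundant of the 10 genes in control libraries 2 and 3, the 3rd in control library 1 and DMHCA library 2, and the 2nd in DMHCA libraries 1 and 3. Deptor TPM divided by Mtor TPM within the same library was 7.33, 2.45 and 1.85 in the controls and 9.85, 8.61 and 9.36 in DMHCA libraries 1, 2 and 3. This ratio does not depend on how libraries are scaled, but it does depend on the estimated transcript lengths. The estimated length of Mtor differed by 11.9% between the nearly identical DMHCA libraries 1 and 3. In this ratio, control library 1 lay nearer to the DMHCA libraries than to the other controls. Deptor made up 3.13% to 11.5% of the summed TPM of the 10 genes in control libraries and 15.1% to 21.7% in DMHCA libraries.

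**Figure D1:**
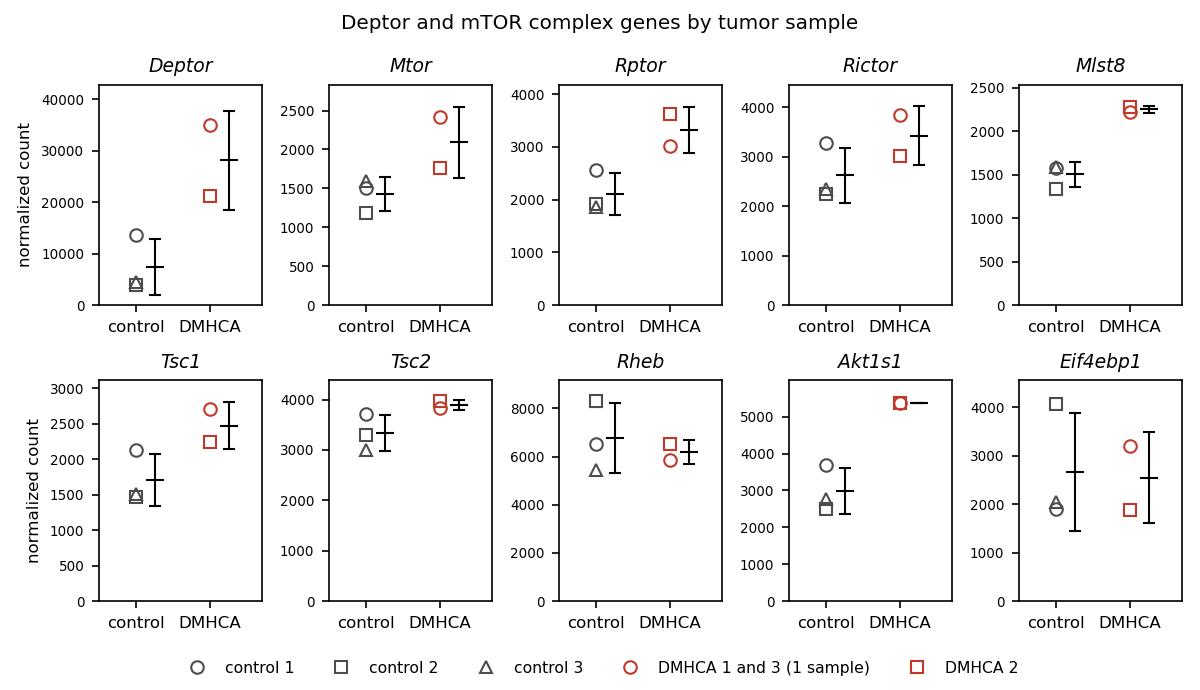
Normalized counts (vertical axis, starting at 0) of Deptor and the 9 other genes in each control sample (grey) and DMHCA sample (red), with the mean ± SD of each group beside the points. Both DMHCA samples lie above all 3 controls for Deptor, Mtor, Rptor, Mlst8, Tsc1, Tsc2 and Akt1s1, while the groups overlap for Rictor, Rheb and Eif4ebp1.

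Bulk tumor RNA holds many cell types, and fewer cells of a type cannot be told apart from less RNA per cell. Luminal epithelial markers (Epcam, Krt8, Krt18, Krt19 and Cdh1) summed to 2930.3 to 3591 TPM in control and 4063 to 4422 TPM in DMHCA libraries, and Deptor per 1000 TPM of these markers was 2.86 to 11.8 TPM in control and 17.4 to 24.7 TPM in DMHCA libraries. The higher sum came from Krt8 and Krt18 (log2 fold change 0.54 and 0.40 in counts), whereas Epcam, Cdh1 and Krt19 were at -0.12, -0.09 and -4.01 and the median of the 5 was -0.09. Krt8 separated the groups in normalized counts, and Krt8 and Krt18 did in TPM. Adipocyte markers (Adipoq, Plin1, Lep and Fabp4) summed to 119 to 870.1 TPM in control and 68.0 to 68.4 TPM in DMHCA libraries, and all 4 were lower without overlap of the samples, as were 12.2% of all 19427 genes tested. Skeletal muscle markers (4 genes) summed to 309 to 533 TPM in control and 132 to 492 TPM in DMHCA libraries, with DMHCA library 2 lowest, and fibroblast markers (5 genes) to 194 to 866 TPM in control and 359.9 to 413 TPM in DMHCA libraries. T cell and B cell markers (7 genes) were highest in control library 3, at 81.2 and 168 TPM, against 0.910 to 9.34 and 0.200 to 19.3 TPM in the other controls and at most 4.96 and 1.09 TPM with DMHCA. Basal epithelial (4 genes), endothelial (4) and macrophage (4) markers summed to 5.28 to 58.0 TPM in control and 7.01 to 13.4 TPM in DMHCA libraries, 26.7 to 45.2 TPM in control and 44.2 to 50.7 TPM in DMHCA libraries, and 62.2 to 130.4 TPM in control and 87.6 to 101 TPM in DMHCA libraries. The part of these cell types in the levels of Deptor and the other members was not tested.

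Known LXR target genes were read as a check of the treatment. Of 10 such genes, 7 were higher with DMHCA without overlap of the samples and 1, Apoe, was lower, against 13.8% higher and 12.2% lower of all genes tested. Srebf1, the lipogenic regulator induced by LXR, had 29545, 17137 and 25311 normalized counts in control tumors 1, 2 and 3, 114712 in the merged DMHCA sample and 78056 in DMHCA tumor 2 (log2 fold change 2.01, standard error 0.39, adjusted p = 0.644). The cholesterol exporters Abca1 and Abcg1 had log2 fold changes of 1.36 (standard error 0.35) and 0.80 (standard error 0.42), and both were higher in every DMHCA sample than in every control.

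In edgeR's quasi-likelihood test over 19427 genes, an adjusted p below 0.05 was reached by 0 (0%), so none of the 9 genes other than Deptor passed. Unadjusted, 1478 genes had p below 0.05, and DESeq2 on the same 5 samples called 244 (1.22%) of the 20055 genes to which it gave an adjusted p, none of them among the 9. On the 6 libraries as separate samples it called 3.98%, again with none of the 9. All 10 genes passed the filter on low counts. Of the 9, 7 had a higher fitted level with DMHCA and 2, Rheb and Eif4ebp1, a lower one, both of which are above 0 on the TPM scale but below the median of all genes on it (-0.16 and -0.08 relative to it). The unadjusted p fell below 0.05 in 3 of the 9, all higher (Rptor, Mlst8 and Akt1s1), where 3.53% of all genes tested were higher and 4.08% lower at that level. This count was 1 without control tumor 2 or control tumor 3, where 1800 of 19158 and 1024 of 18855 genes tested had such a p in either direction. It was 2 without control tumor 1 or DMHCA library 1, where 1278 of 19070 and 1474 of 19438 genes did. Leaving out DMHCA tumor 2 leaves a single DMHCA sample, and the log2 fold changes of Rptor, Mlst8 and Akt1s1 were then 0.55, 0.61 and 0.88. Both DMHCA samples exceeded all 3 controls in 6 of the 9 and were below them in 0, whereas 13.8% of all genes tested were higher and 12.2% lower without overlap. With TPM in place of normalized counts, 5 of the 9 were higher without overlap, where 20.3% of all genes were, and the gene lost was Tsc2. The median log2 fold change of the 9 was 0.54, beside -0.03 for all genes tested.

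Of the core subunits, Mtor, Rptor and Mlst8 were each higher in both DMHCA samples than in all 3 controls, by 1.47-, 1.57- and 1.50-fold in the fit. Mtor (ENSMUSG00000028991, chr4:148448611-148557683, plus strand) encodes the kinase itself and had 1500.0, 1181 and 1597 normalized counts in control tumors 1, 2 and 3, 2413 in the merged DMHCA sample and 1766 in DMHCA tumor 2. DMHCA tumor 2 lay nearer to the highest control than to the merged DMHCA sample, and the interval of the difference included 0 (log2 fold change 0.55, standard error 0.28, 95% interval -0.12 to 1.22, adjusted p = 0.647). Rptor (ENSMUSG00000025583, chr11:119602905-119899576, plus strand), the mTORC1 scaffold that recruits substrates, had 2573, 1917 and 1855 normalized counts in control tumors 1, 2 and 3, 3011 in the merged DMHCA sample and 3632 in DMHCA tumor 2 (log2 fold change 0.65, standard error 0.26, 95% interval 0.02 to 1.28, adjusted p = 0.644). The antisense gene Rptoros lies within Rptor, at 0.34 TPM or less in every library. DMHCA tumor 2 was the highest sample for Rptor, while the merged DMHCA sample was the highest for Mtor and Deptor. Mlst8 (ENSMUSG00000024142, chr17:24473551-24479078, minus strand) encodes a subunit of both complexes and had 1581, 1341 and 1589 normalized counts in control tumors 1, 2 and 3, 2224 in the merged DMHCA sample and 2282 in DMHCA tumor 2 (log2 fold change 0.58, standard error 0.24, 95% interval 0.01 to 1.15, adjusted p = 0.644).

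Bricd5 lies within Mlst8 on the opposite strand, and its own level was 44.9, 44.6 and 39.5 TPM in control libraries and 135, 62.3 and 133 TPM in DMHCA libraries 1, 2 and 3. Its reads and those of Mlst8 cannot be separated with certainty, and its part in the Mlst8 difference was not tested. Rictor (ENSMUSG00000050310, chr15:6708379-6800401, plus strand), the scaffold of mTORC2, had 3267, 2241 and 2355 normalized counts in control tumors 1, 2 and 3, 3844 in the merged DMHCA sample and 3008 in DMHCA tumor 2. Control tumor 1 exceeded DMHCA tumor 2, so the groups overlapped (log2 fold change 0.39, standard error 0.28, 95% interval -0.28 to 1.05, adjusted p = 0.712). Rptor TPM divided by Rictor TPM was 1.23, 1.29 and 1.24 in the controls, 1.26 and 1.26 in DMHCA libraries 1 and 3 and 1.98 in DMHCA library 2, which stood apart from the other 5 libraries.

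Of the upstream regulators, Tsc1 and Tsc2 were higher with DMHCA without overlap and Rheb overlapped. Tsc1 (ENSMUSG00000026812, chr2:28641228-28691167, plus strand), the stabilizing partner in the TSC complex, had 2127, 1467 and 1516 normalized counts in control tumors 1, 2 and 3, 2705 in the merged DMHCA sample and 2241 in DMHCA tumor 2 (log2 fold change 0.54, standard error 0.28, 95% interval -0.13 to 1.20, adjusted p = 0.648). Tsc2 (ENSMUSG00000002496, chr17:24595816-24632630, minus strand) encodes the GTPase-activating subunit and had 3709.6, 3297 and 3005 normalized counts in control tumors 1, 2 and 3, 3828 in the merged DMHCA sample and 3966 in DMHCA tumor 2. Its highest control and the merged DMHCA sample were separated by a small gap (log2 fold change 0.22, standard error 0.23, 95% interval -0.33 to 0.78, adjusted p = 0.783), and in TPM the groups overlapped. Pkd1 overlaps the end of Tsc2 on the opposite strand, at 8.32 to 15.7 TPM in control and 12.8 to 17.7 TPM in DMHCA libraries. Rheb (ENSMUSG00000028945, chr5:24802823-24842624, minus strand), the GTPase that activates mTORC1, had 6533, 8313 and 5438 normalized counts in control tumors 1, 2 and 3, 5852 in the merged DMHCA sample and 6531 in DMHCA tumor 2. Control tumor 2 was highest and control tumor 3 lowest, with both DMHCA samples between them (log2 fold change -0.13, standard error 0.28, 95% interval -0.81 to 0.55, adjusted p = 0.907).

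Of the mTORC1 substrates, Akt1s1 differed most between the groups and Eif4ebp1 did not separate them. Akt1s1 (ENSMUSG00000011096, chr7:44848991-44855421, plus strand) encodes PRAS40 and had 3700.0, 2509.9 and 2766 normalized counts in control tumors 1, 2 and 3, 5377 in the merged DMHCA sample and 5375 in DMHCA tumor 2. The DMHCA samples lay next to each other and above every control, with a 1.80-fold difference (log2 fold change 0.85, standard error 0.26, 95% interval 0.21 to 1.48, adjusted p = 0.644). Tbc1d17 overlaps the start of Akt1s1 on the opposite strand, and its level was 11.8 to 28.4 TPM in control and 35.0 to 40.5 TPM in DMHCA libraries, so some reads cannot be assigned with certainty. Eif4ebp1 (ENSMUSG00000031490, chr8:27260329-27276674, plus strand) encodes 4E-BP1 and had 1892, 4073 and 2046 normalized counts in control tumors 1, 2 and 3, 3207 in the merged DMHCA sample and 1888 in DMHCA tumor 2. Control tumor 2 was the highest sample and DMHCA tumor 2 the lowest (log2 fold change -0.07, standard error 0.43, 95% interval -1.10 to 0.96, adjusted p = 0.969). Its ratio in TPM to Eif4e, the cap-binding protein that 4E-BP1 blocks, was 0.383 to 0.787 in control and 0.273 to 0.712 in DMHCA libraries.

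**Figure D2:**
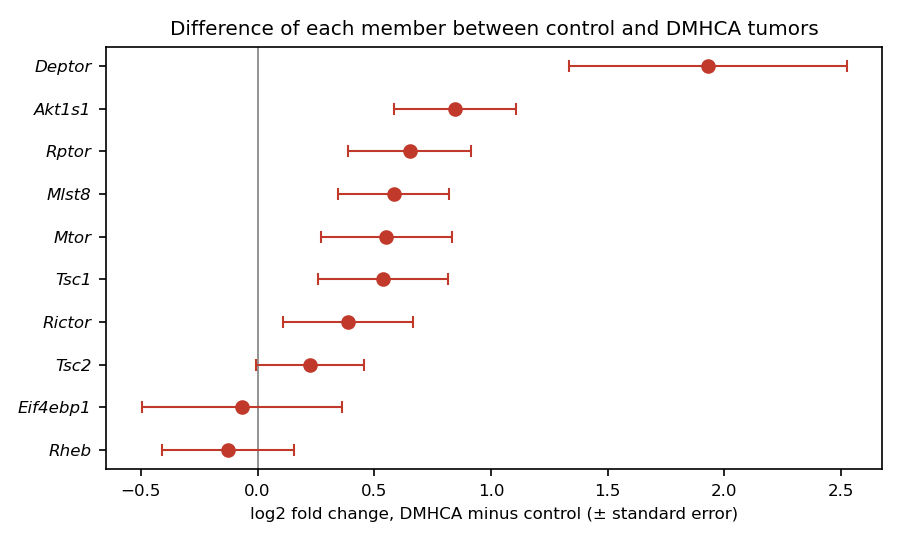
Log2 fold change of each of the 10 genes (horizontal axis, DMHCA minus control, normalized counts), with bars of ± 1 standard error from the fit over 5 samples. Deptor, which was chosen for this difference, is at 1.93, Akt1s1 at 0.85, and Eif4ebp1 and Rheb lie just below 0. On the TPM scale, where all genes are shifted up by a median of 0.20, both are above 0 but below the median of all genes.

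Levels per transcript length ranged widely among the members. In control libraries, Rheb (mean 101 ± 8.20 TPM, SD, n = 3) was the most abundant, and Akt1s1 (60.3 ± 22.6), Eif4ebp1 (56.5 ± 20.3) and Tsc2 (40.6 ± 3.54) followed, with overlapping ranges among these 3. Deptor (21.6 ± 18.1) and Mlst8 (14.0 ± 3.47) had overlapping ranges. Rptor (8.76 ± 2.88), Rictor (7.01 ± 2.44), Tsc1 (6.41 ± 2.17) and Mtor (5.57 ± 1.64) were the lowest, again with overlapping ranges. In each of the 6 libraries, Mtor RNA was less abundant in TPM than that of Mlst8, Deptor and Akt1s1. Protein levels were not examined. With DMHCA, Akt1s1 (118 ± 2.30 TPM, SD, n = 2) was the most abundant in each library, and Deptor reached 88.4 ± 25.2 TPM beside Rheb at 102 ± 14.9 TPM. TPM has its own scale: over the 16290 genes in both fits, log2 fold changes from TPM were higher than those from counts by a median of 0.20, and their median was 0.18. Relative to that median, Akt1s1 was at 0.85, Rptor at 0.68, Mlst8 at 0.59, Mtor at 0.54, Tsc1 at 0.40, Rictor at 0.35, and Tsc2, Eif4ebp1 and Rheb at -0.06, -0.08 and -0.16.

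**Figure D3:**
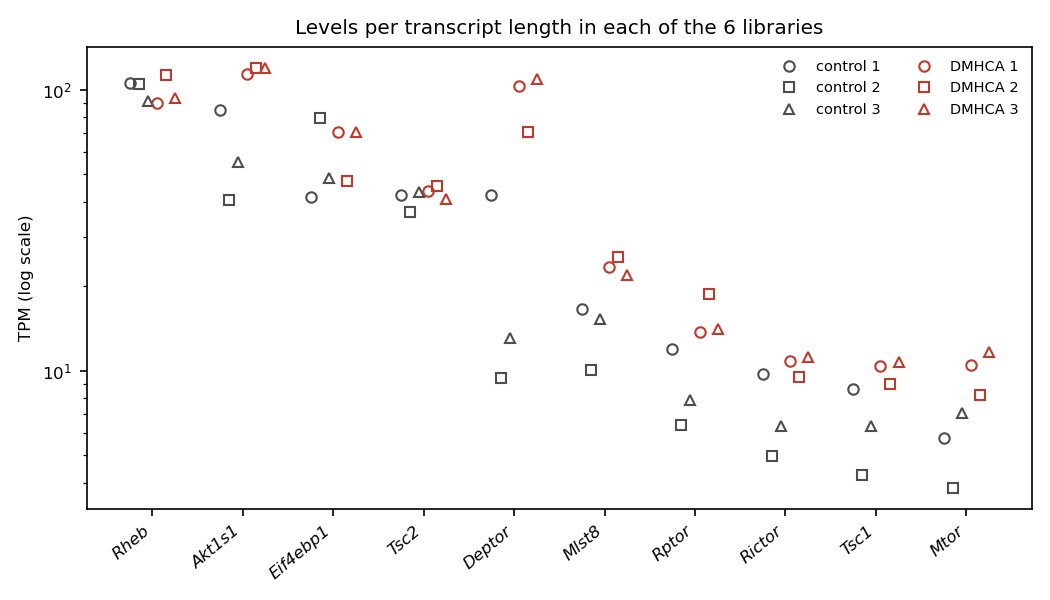
TPM (vertical axis, log scale) of each gene in the 3 control (grey) and 3 DMHCA (red) libraries, ordered by the mean in controls. Libraries DMHCA 1 and 3 are the pair counted as 1 sample. Deptor spans from 9.39 TPM in control library 2 to 109 TPM in DMHCA library 3, the widest span of the 10, and Tsc2 and Rheb the narrowest.

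The rest of the pathway was read from 8 lists of 93 further genes, all of which passed the filter on low counts. These lists were also chosen with earlier results of these data known. An adjusted p under 0.05 was found for 0 of the 93 by edgeR, and an unadjusted p under 0.05 for 6 higher and 1 lower (6.45% and 1.08%, against 3.53% and 4.08% of all genes tested). The samples did not overlap for 26 higher and 9 lower genes (28.0% and 9.68%, against 13.8% and 12.2% of all genes). The median log2 fold change of the 93 was 0.09. Medians of single lists ran from -0.03 for 17 genes of the PI3K and AKT input to 0.36 for 7 partners of the complexes.

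Among the 7 complex partners, which include the TTT assembly factors and mTORC2 subunits, 4 were higher without overlap (Mapkap1, Prr5, Telo2 and Tti1) and 0 lower, against 13.8% higher and 12.2% lower of all genes tested. Prr5, an mTORC2 subunit, had the largest difference, with 2795, 2062 and 1064 normalized counts in control tumors 1, 2 and 3, 3779 in the merged DMHCA sample and 3529 in DMHCA tumor 2 (log2 fold change 0.89, standard error 0.40, adjusted p = 0.644). Of 29 genes of amino acid sensing, 5 were higher and 5 lower without overlap (17.2% each way), near the share of all genes. Rragd, one of the Rag GTPases that bring mTORC1 to the lysosome, had 287, 136 and 347 normalized counts in control tumors 1, 2 and 3, 2070.4 in the merged DMHCA sample and 408 in DMHCA tumor 2 (log2 fold change 2.27, standard error 0.73, adjusted p = 0.644). The merged DMHCA sample carried most of this difference, and DMHCA tumor 2 was only slightly above control tumor 3. Rragb, another Rag GTPase, was lower with DMHCA at very low levels, with 7.59 to 55.2 normalized counts in controls against 4.02 and 2.02 (log2 fold change -2.95, standard error 1.12, adjusted p = 0.644). Lamtor1, the Ragulator subunit that anchors the Rag GTPases to the lysosome, had 3465, 2831 and 3317 normalized counts in control tumors 1, 2 and 3, 5499 in the merged DMHCA sample and 5082 in DMHCA tumor 2 (log2 fold change 0.72, standard error 0.23, adjusted p = 0.644). Kptn, part of the KICSTOR complex, was highest in DMHCA tumor 2 at 1709 normalized counts, against 805 in the merged DMHCA sample and 449 to 738 in controls (log2 fold change 1.08, standard error 0.43, adjusted p = 0.644).

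In the PI3K and AKT list of 17 genes, 3 were higher and 3 lower without overlap (17.6% each way), against 13.8% higher and 12.2% lower of all genes tested. Inpp4b, a phosphatase that opposes PI3K, had 453, 492 and 1780.0 normalized counts in control tumors 1, 2 and 3, 323 in the merged DMHCA sample and 275 in DMHCA tumor 2 (log2 fold change -1.60, standard error 0.70, adjusted p = 0.644). Control tumor 3 was far above the other samples. Of 8 genes of energy and stress input, Prkaa2 and Prkag1 were higher without overlap. Prkaa2, a catalytic subunit of the energy sensor AMPK, had 1000.3, 849 and 1176 normalized counts in control tumors 1, 2 and 3, 2974 in the merged DMHCA sample and 1692 in DMHCA tumor 2 (log2 fold change 1.21, standard error 0.33, adjusted p = 0.644).

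In the translation list of 11 genes, 6 were higher without overlap (Rps6kb1, Eif4ebp2, Eif4b, Eif4g1, Pdcd4 and Eef2k) and 0 lower, against 13.8% higher and 12.2% lower of all genes tested. Eef2k, the kinase that slows translation elongation, had 1591, 566 and 2077 normalized counts in control tumors 1, 2 and 3, 5477 in the merged DMHCA sample and 2963 in DMHCA tumor 2 (log2 fold change 1.58, standard error 0.55, adjusted p = 0.644). Of 9 genes of autophagy and other outputs, 4 were higher and 1 lower without overlap. Grb10, an adaptor that mTORC1 phosphorylates and that dampens insulin receptor signaling, had 2919, 2404 and 2691 normalized counts in control tumors 1, 2 and 3, 5117 in the merged DMHCA sample and 7458 in DMHCA tumor 2 (log2 fold change 1.23, standard error 0.27, adjusted p = 0.644). Both DMHCA samples were well above the 3 controls, which lay close together. Of 6 mTORC2 outputs, 1 (Foxo3) was higher without overlap, and the largest difference was in Ndrg1, at 4069 to 11801 normalized counts in controls and 7725 and 2532 with DMHCA (log2 fold change -0.64, standard error 0.61, adjusted p = 0.762).

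DEPTOR protein is removed by the SCF ubiquitin ligase with the F-box protein β-TrCP, after phosphorylation that involves CK1. Among 6 genes of this turnover, log2 fold changes lay between -0.02 and 0.51 and 1 gene, Fbxw11, was higher without overlap, against 13.8% higher and 12.2% lower of all genes tested. Btrc, like Fbxw11, encodes a form of β-TrCP. Btrc had 1162, 1516 and 691 normalized counts in control tumors 1, 2 and 3, 684 in the merged DMHCA sample and 1548 in DMHCA tumor 2 (log2 fold change -0.01, standard error 0.48, adjusted p = 0.995). Cul1, the scaffold of the ligase, showed the largest difference, with DMHCA tumor 2 at 12769 normalized counts and the merged DMHCA sample at 6689, within the control range of 5135 to 8026 (log2 fold change 0.51, standard error 0.37, adjusted p = 0.712).

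**Figure D4:**
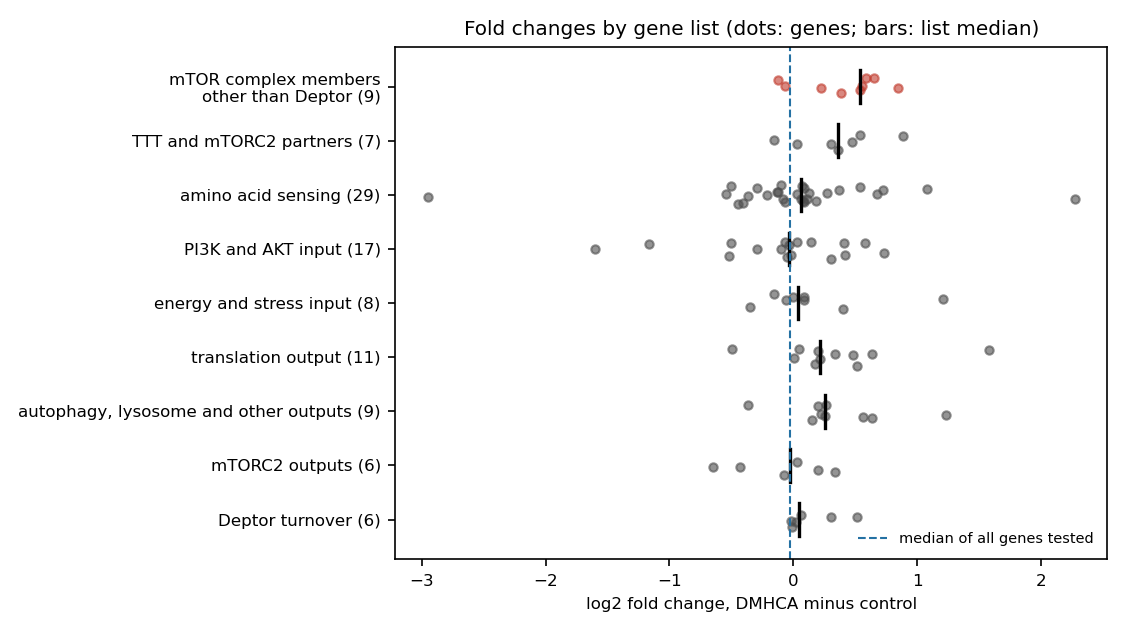
Log2 fold changes (horizontal axis, DMHCA minus control, normalized counts) of the 9 genes other than Deptor (red) and of the 93 further pathway genes by list (grey), with each list's median as a black bar and the median of all genes tested as a dashed line. The median of the 9 is 0.54, and the list medians of the further genes run from -0.03 to 0.36.

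The pattern of Deptor over the 5 samples was compared with that of 11779 other genes with a mean of at least 300 normalized counts. The 5 genes most like it, by Pearson's r of log2 CPM (counts scaled by library size), were Kcnn4, a calcium-activated potassium channel, Prmt3, an arginine methyltransferase, and Chid1, Tubgcp6 and Tmem41b, with r from 0.9961 to 0.9996. Over so few samples high values are common, and 302 genes had r above 0.95. Kcnn4 had 36735, 18856 and 20797 normalized counts in control tumors 1, 2 and 3, 59655 in the merged DMHCA sample and 46717 in DMHCA tumor 2. Like Deptor, it was highest in the merged DMHCA sample, next in DMHCA tumor 2 and then in control tumor 1, with the other controls lowest. The log2 fold changes of the 5 genes, 0.27 to 1.06, were smaller than that of Deptor.

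Deptor lies on chromosome 15 between Dscc1, 21.8 kb away, and Col14a1, 48.5 kb away. The 3 tested protein-coding genes on each side did not share one direction. Enpp2, the autotaxin gene, had 806, 1019 and 4028 normalized counts in control tumors 1, 2 and 3, 118 in the merged DMHCA sample and 69.9 in DMHCA tumor 2 and thus a lower level in both DMHCA samples (log2 fold change -4.37, standard error 0.89, adjusted p = 0.644). Taf2 (0.27) and Mtbp (0.62) were higher without overlap on the log2 scale of the fit, while Dscc1 (0.73), Col14a1 (0.81) and Mrpl13 (0.21) overlapped, against 13.8% higher and 12.2% lower of all genes tested. Control tumor 3 was the highest sample for Enpp2 and also for the adipocyte markers (870.1 TPM), whose part in this difference was not tested. Col14a1, a fibril-associated collagen next to Deptor, was highest in DMHCA tumor 2 and not in the merged DMHCA sample, where Deptor was highest.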

How the data were processed

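RNA from snap-frozen tissue was sequenced in 3 control and 3 DMHCA libraries. Per the study's methods and the submitters' processing notes, reads were checked with FastQC 0.11.9, trimmed with cutadapt 2.9, and aligned with Bowtie2 2.4.1 and counted with RSEM 1.3.1 on the Ensembl mouse genome (mm10). The authors deposited 1 table per library with RSEM's expected counts, which are estimated reads per gene without normalization, and with TPM, scaled by the authors' run to the same sum in every library. The deposited FPKM values were not used, and the deposited transcript lengths are in bases. The p-values set the difference between the groups against the spread between samples within a group. RSEM divides reads that fit several genes, so paralogs are uncertain.

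Expected counts were rounded and summed to 46358654 to 63420620 per library. Each member had at least 1245 counts in every library. The near-identity of DMHCA libraries 1 and 3 was checked on genes averaging 100 counts or more, of which 18.2% differed between them by a chi-square test, against 82.0% to 87.0% in the other pairs. Differences were tested by edgeR 4.0.16 (R 4.3.3) on the 5 samples, with TMM scaling, the filterByExpr filter at its settings of 10 for the minimum count and 15 for the total, the quasi-likelihood F-test, and Benjamini-Hochberg adjustment over the whole table. The standard error was taken as the fold change on the log2 scale divided by the square root of F, and intervals use the t distribution of the fit. Normalized counts are scaled to the mean effective size of a library. Alternatives used DESeq2 1.42.0, limma 3.58.1 on log2(TPM + 1) and log2(TPM + 0.1) with a mean of at least 0.5 TPM, other filters and left-out tumors. Scripts were tested on simulated data. Coordinates are from GENCODE M21 (GRCm38), and joins and plots used pandas 2.3.3 and matplotlib 3.10.9.

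The members and lists were chosen with earlier results of these data known. Named genes were the members, the list genes with an unadjusted p under 0.05 or else the largest fold change of a list, the 5 genes most like Deptor and its 3 tested neighbours on each side. Genes that complete a count of non-overlapping genes, overlap a member or check the treatment, and Btrc, are named outside this rule, after their values were seen.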

Additional observations from a re-analysis of the deposited data

How the results depend on the processing

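The count of genes with an adjusted p under 0.05 was 0 in edgeR on the 5 samples and became 244 in DESeq2 on the 5 samples, 846 in DESeq2 on the 6 libraries, where DMHCA libraries 1 and 3 count as separate samples, and 16 in edgeR without a filter, and it was 0 under the other 12 alternatives. The cause was not tested. Of the 93 further pathway genes, DESeq2 called 1 (Grb10, 1.08%) on the 5 samples and 4 (Grb10, Rragd, Prkaa2 and Eef2k, 4.30%) on the 6 libraries, where it called 1.22% of 20055 and 3.98% of 21283 genes with an adjusted p. Of the 9 members other than Deptor, 0 were called under all 15 alternatives, and the lowest adjusted p was 0.0667, for Akt1s1 in DESeq2 on the 6 libraries. Mtor, Rptor, Rictor, Mlst8, Tsc1, Tsc2 and Akt1s1 kept a positive log2 fold change under all 15. Deptor was chosen for its difference between these same libraries, so its sign is no result. As a description, its log2 fold change ran from 1.63 (without control tumor 2) to 2.72 (without control tumor 1). Eif4ebp1, at -0.07, changed sign to 0.0357 with 6 libraries, 0.10 with 6 libraries and the replicate block, 0.0529 in DESeq2 on the 6 libraries and 0.0917 and 0.0937 with TPM pseudocounts of 1 and 0.1, and ranged from -0.26 to 0.37 with tumors left out. Rheb, at -0.13, was at 0.0208 and 0.0209 with those pseudocounts, which shift all genes up by a median of 0.20 at a pseudocount of 1, and ranged from -0.27 to 0.0478 with tumors left out. Without DMHCA tumor 2 a single DMHCA sample is left, which is assumed to vary like the controls. The count of the 9 members higher without overlap was 6, and 6 to 7 with a control tumor or DMHCA tumor 2 left out, where 18.1% to 26.1% of all genes were higher, and 5 in TPM, alternatives chosen after seeing the data.

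The labels tie no replicate number to a shared animal, litter or batch. Deviations from the group means of same-numbered libraries correlated at -0.0341, 0.310 and 0.320, and 4 of the 6 libraries correlated best with their own number. Not every correlation was above 0.1, and the numbers were not taken to pair the samples. With the replicate block the count of genes called was 0 and that of members called 0, as without it on the 6 libraries.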

Other observations

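The deposited tables also give each gene's mean transcript length per library, weighted by the estimated abundance of its isoforms. For Deptor this length was 8442 to 8547 bases over the 6 libraries, a range of 1.23%. Tsc2 had the widest range of the 10 genes, 32.0%, with 2474, 1922 and 1856 bases in control libraries 1, 2 and 3 and 2383, 2591 and 2553 bases in DMHCA libraries 1, 2 and 3. Control library 1 lay with the DMHCA libraries, so the groups overlapped. Mtor ranged from 5369.7 to 6922 bases, and its lengths in the near-identical DMHCA libraries 1 and 3 differed by 11.9%, which was the largest gap between that pair among the 10 genes. For Tsc2 that gap was 6.90%.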
